A study of Sus scrofa domesticus with 6 samples.

Results

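HOX genes are the homeobox transcription factors of the 4 chromosomal clusters HOXA, HOXB, HOXC and HOXD, and they were followed here in small intestine of Göttingen minipigs. Members were all rows of the deposited gene table whose symbol was HOXA, HOXB, HOXC or HOXD followed by a number, without antisense rows. This gave 36 of 30352 named genes: 11 of HOXA on chromosome 18, 8 of HOXB on chromosome 12, 9 of HOXC on chromosome 5 and 8 of HOXD on chromosome 15 (Sscrofa11.1). Rows for HOXB4, HOXB9 and HOXD4 were not among them and were not analysed here.

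RNA sequencing covered 6 wild-type animals aged 6 months, 2 in each of 3 groups, with tissue from day 14. IR_Pra animals received 15 Gy of cobalt-60 gamma rays to the abdomen and oral pravastatin, a statin that inhibits cholesterol synthesis, at 40 mg per day for 2 weeks. IR animals received the 15 Gy exposure alone, and control animals neither. The labels name the tissue as small intestine and give no position along it. For the HOX genes, differences in treatment and in the position of the pieces therefore cannot be told apart in any comparison.

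HOX genes of a cluster lie in the order in which they act along the body. Low-numbered paralogs stand at the 3' end and are used in the head and upper trunk, and high-numbered paralogs stand at the 5' end and are used towards the tail, an order called collinearity. In the adult gut, a regional HOX pattern is retained in fibroblasts and smooth muscle, and several HOX genes are also used in epithelium. HOX proteins bind DNA together with cofactors of the PBX and MEIS families, Polycomb proteins keep unused cluster genes silent, and retinoic acid is an early inducer of the 3' genes.

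The libraries held between 48587645 and 73968471 counts on named genes. Epithelial markers set library IR 2 apart: the summed FPKM (fragments scaled to transcript length and library size) of 13 epithelial markers was 4881 and 4005 in IR_Pra, 3532 and 988 in IR, and 3861 and 4639 in control. Library IR 1 carried a trend with transcript length, with a median log2 difference from the control mean of 0.62 over the 10% of genes with the shortest transcripts and -0.71 over the 10% with the longest. The tested HOX genes had a median length of 2789 nt, against 3110 nt for all tested genes. Counts of calls are therefore also given without each of these libraries, and estimates without IR 2 are given for a few single genes.

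Paralogs 4 to 8, the central genes of the clusters, led in all 6 libraries. The summed FPKM of the 36 genes was 154 and 90.1 in IR_Pra, 63.3 and 132 in IR, and 30.0 and 44.6 in control. Paralogs 4 to 8 made up 85.5% and 87.9% of this sum in IR_Pra, 77.5% and 74.6% in IR, and 79.7% and 80.5% in control. The 36 genes together took between 0.00885% and 0.0460% of a library's counts, so these are low-abundance transcripts in whole tissue. In such samples, fewer cells of a type and less RNA per cell cannot be told apart.

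No count in any library was found for 10 members, and most of them were the 5' genes of the tail. These 10 genes were HOXA11, HOXA13, HOXB1, HOXB13, HOXC11, HOXC12, HOXC13, HOXD11, HOXD12 and HOXD13. Paralog 13 genes pattern the hindgut and the genital tract, and HOXB13 marks distal colon and rectum. A count of 0 allows up to 3 counts per library, which was at most 0.0579 CPM (counts scaled to library size by TMM factors). Of the 26 genes with at least 10 counts in any library, HOXD1 and HOXD10 did not pass the filter on low counts, and 24 were tested. HOXD1 had 0 and 2 counts in IR_Pra, 4 and 12 in IR, and 8 and 10 in control.

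**Figure D1:**
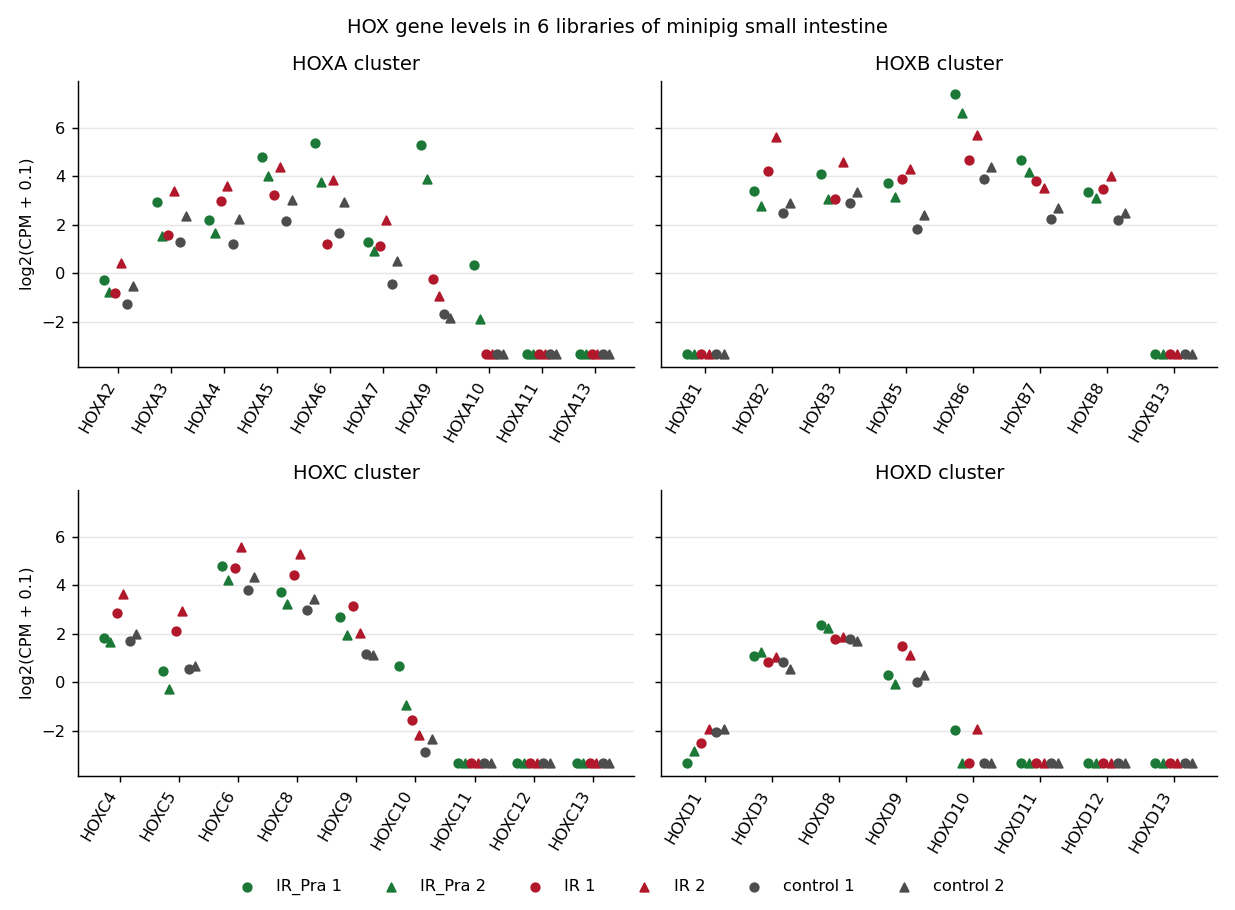
HOX gene levels by cluster, as log2(CPM + 0.1), with 1 symbol for each library and paralogs ordered by number along the x axis. HOXA9, HOXA10 and HOXC10 had their highest symbols in both IR_Pra libraries, and the genes beyond paralog 10 lie on the lower limit in all 6 libraries.

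Of 11 markers of the lower small bowel, 10 were detected in all libraries, each with its lowest FPKM in IR 2, and INSL5 was at 0 in all. FABP6, the ileal bile acid carrier, had 35450 and 19210 FPKM in IR_Pra, 34050 and 1030 in IR, and 23050 and 13050 in control. SLC10A2, the ileal bile acid transporter, had 129 and 75.3 FPKM in IR_Pra, 160 and 1.40 in IR, and 96.2 and 90.8 in control. Library IR 2 was the low value for both, as it was for the epithelial markers. GATA4, a transcription factor of duodenum and jejunum, stayed between 0.0633 and 0.426 FPKM in all libraries, and PDX1, of duodenum and pancreas, between 0.0190 and 0.876 FPKM. Other members of the proximal list were present: MTTP, which loads lipid onto chylomicrons, had 59.3 and 40.5 FPKM in IR_Pra, 46.3 and 1.495 in IR, and 48.2 and 76.5 in control, and the duodenal hormone GIP had 1.82 and 10.51 in IR_Pra, 18.5 and 0.900 in IR, and 16.3 and 45.0 in control. CDX2, the caudal-type homeobox factor of intestinal epithelium, had 122 and 124 FPKM in IR_Pra, 179 and 27.4 in IR, and 109 and 138 in control, so the groups overlapped. Colon-associated genes were present as well, with MS4A12 at 209 and 218 FPKM in IR_Pra, 157 and 11.99 in IR, and 236 and 184 in control. Of the 10 stomach genes GKN1, CLDN18 and ANXA10 were at 0 in all libraries, whereas TFF2, a mucosal peptide, had 46.7 and 27.0 FPKM in IR_Pra, 49.2 and 3.71 in IR, and 53.1 and 42.9 in control. None of the 10 tested distal markers passed the adjusted threshold in any comparison, and neither did any of the 6 tested large bowel markers. Of 12 proximal markers SLC46A1, the intestinal folate transporter, passed in IR against control (1.39 ± 0.28, edgeR adjusted p = 0.0487).

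The first question was how the HOX genes of irradiated intestine on pravastatin differed from those of irradiated intestine without it. In IR_Pra the profile was dominated by HOXB6, and HOXA9 was present at a level that neither other group approached. HOXA10 and HOXC10 were also detected mainly in IR_Pra. In contrast, HOXC4, HOXC5, HOXC8, HOXB2, HOXB5, HOXB8, HOXA4 and HOXD9 lay below IR. None of the 24 tested genes passed an adjusted p of 0.05 (edgeR's quasi-likelihood test, Benjamini-Hochberg over 18197 genes), and over all genes 0.00550% did so, a single gene. At an unadjusted p of 0.05, 11 of the 24 HOX genes and 4467 of all genes passed, and DESeq2 called 7 HOX genes beside 15.8% of all genes. Both HOX counts include HOXA10, which passed the filter on low counts only through its IR_Pra libraries. The count at unadjusted p also includes HOXC10, which passed that filter only with the IR_Pra libraries counted.

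HOXA9, a regulator of blood progenitors that is used in the lower trunk (Entrez 100519066, chromosome 18, 45404594 to 45411512), showed the widest separation. It had 2028 and 784 counts in IR_Pra, 40 and 32 in IR, and 12 and 11 in control. On the CPM scale this was 39.2 and 14.7 in IR_Pra, 0.743 and 0.423 in IR, and 0.208 and 0.175 in control. Both IR_Pra libraries thus lay far above all 4 others, and the IR_Pra libraries themselves differed from each other. The log2 fold change was 5.54 ± 0.64 against IR (edgeR adjusted p = 0.0754) and 7.12 ± 0.71 against control (edgeR adjusted p = 0.296), where ± is the standard error. By unadjusted p it ranked 31st and 4th of the 18197 genes (6.5e-05 against control, edgeR). With DESeq2 the same differences had adjusted p = 8.3e-15 against IR and 2.7e-21 against control. HOXA9 was singled out after its values had been seen.

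The next gene of the cluster towards the 5' end had counts only in IR_Pra, at a far lower level than HOXA9. HOXA10, known in mice for its role in the uterus and lower trunk (chromosome 18, 45393525 to 45403259), had 60 and 9 counts in IR_Pra and 0 in all IR and control libraries. With a floor of 3 counts over the 2 libraries of IR or of control, the pooled level was at least 28.35-fold higher than IR and 26.4-fold higher than control, on counts scaled to library size. This rests mainly on IR_Pra 1: for IR_Pra 2 alone the bounds were 7.29-fold and 6.79-fold. The test did not pass the threshold in either comparison (edgeR adjusted p = 0.153 against IR and 0.9998 against control). HOXA10 passed the filter on low counts only through IR_Pra, so its placement above the other groups was fixed in advance. Its overlapping long non-coding RNA row LOC102159438 (45402472 to 45404561) had 143 and 58 counts in IR_Pra and 0 in the other 4 libraries. Without strand information the reads of these overlapping rows cannot be told apart.

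HOXB6, a gene of trunk mesoderm (Entrez 100627849, chromosome 12, 24849741 to 24853494), was the most abundant HOX gene in IR_Pra and also in control. It had 168 and 99.0 CPM in IR_Pra, 25.2 and 51.6 in IR, and 14.9 and 21.0 in control. Each IR_Pra library lay above every IR and control library. The log2 fold change was 1.80 ± 0.45 against IR (edgeR adjusted p = 0.102) and 2.90 ± 0.47 against control (edgeR adjusted p = 0.9998). Per length, HOXB6 made up 40.8% and 40.2% of summed HOX FPKM in IR_Pra, 12.2% and 14.1% in IR, and 17.3% and 16.8% in control. This share varied by less than 2 percentage points within each group. HOXB6 overlaps the non-coding row LOC102166259, which had at most 51 counts in any library.

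HOXB7, its neighbour (24861165 to 24864675), followed the same order with smaller distances. It had 25.5 and 18.0 CPM in IR_Pra, 13.95 and 11.3 in IR, and 4.66 and 6.37 in control. The 3 groups did not overlap, with log2 fold changes of 0.78 ± 0.32 for IR_Pra against IR and 1.98 ± 0.33 for IR_Pra against control (edgeR adjusted p = 0.203 and 0.9998). The next gene, HOXB8, known in mice from blood and microglial progenitors, did not share this order. HOXB8 had 10.1 and 8.59 CPM in IR_Pra, 10.9 and 16.2 in IR, and 4.52 and 5.45 in control, so both irradiated groups lay above control and IR was the highest.

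A row of miscellaneous RNA, LOC100523635, lies beyond HOXB8 and before HOXB13 (chromosome 12, 24889251 to 24901815) and showed a large separation. It had 1042 and 449 counts in IR_Pra, 105 and 0 in IR, and 35 and 4 in control. Its log2 fold change was 3.90 ± 1.79 against IR and 5.42 ± 1.95 against control, and neither passed the threshold (edgeR adjusted p = 0.243 and 0.9998). This row was looked up after the HOX values had been seen, among 21 non-HOX rows within the cluster bounds, 11 of which were tested.

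HOXC10, used at lumbar level in mice (chromosome 5, 19197810 to 19202975), was the most 5' HOXC gene detected. It had 78 and 22 counts in IR_Pra, 13 and 9 in IR, and 2 and 6 in control. The groups did not overlap, yet the counts were low and the fold changes of 2.43 ± 0.88 against IR and 3.82 ± 0.998 against control (log2) did not pass the threshold (edgeR adjusted p = 0.167 and 0.9998). HOXC10 passed the filter on low counts only with the IR_Pra libraries counted, as outside them IR 1 alone reached it. Its placement above IR and control is therefore not independent of the filter. HOXD10, its paralog, had 8 and 0 counts in IR_Pra, 0 and 12 in IR, and 0 in both control libraries, and showed no such order. In the annotation HOXD10 lies within HOXD9, so reads may have been split between this pair.

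The 8 HOX genes with both IR_Pra libraries below both IR libraries were 3 of HOXC, 3 of HOXB, 1 of HOXA and 1 of HOXD. HOXC5 (Entrez 100152707, chromosome 5, 19245857 to 19248183) had 1.26 and 0.713 CPM in IR_Pra, 4.22 and 7.49 in IR, and 1.37 and 1.48 in control. Its log2 fold change against IR was -2.57 ± 0.50, the lowest of the tested HOX genes (edgeR adjusted p = 0.0814). HOXC4 had 3.42 and 3.04 CPM in IR_Pra, 7.04 and 12.3 in IR, and 3.10 and 3.84 in control (-1.58 ± 0.39 against IR, edgeR adjusted p = 0.0986). The IR libraries were the 2 highest for both genes, and IR_Pra overlapped control for HOXC4 and lay below it for HOXC5.

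HOXC8, which patterns thoracic vertebrae in mice, had 13.2 and 9.27 CPM in IR_Pra, 21.1 and 39.0 in IR, and 7.81 and 10.8 in control (-1.42 ± 0.40 against IR, edgeR adjusted p = 0.114). HOXB2, a hindbrain gene in mice, had 10.3 and 6.77 CPM in IR_Pra, 18.3 and 49.8 in IR, and 5.49 and 7.26 in control (-1.99 ± 0.53 against IR, edgeR adjusted p = 0.107). HOXA4 and HOXD9 gave -1.39 ± 0.49 and -1.28 ± 0.43 against IR (edgeR adjusted p = 0.161 and 0.153). Both IR_Pra libraries lay below both IR libraries for each of these 4 genes.

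Counted over the 24 tested HOX genes, 8 had both IR_Pra libraries above both IR libraries and 8 had both below. HOXA10 is among the 8 above, but it passed the filter on low counts only through IR_Pra, so its placement was fixed in advance. HOXC10 is also among the 8 above and passed that filter only with the IR_Pra libraries counted. Among all tested genes the same placement held for 27.3% above and 26.6% below, so the HOX counts in either direction were near the background. Without HOXA10, which was at 0 in IR, the median log2 fold change of the other 23 was -0.38, against -0.02 for all genes, with 9 above 0 and 14 below. By cluster the median was 0.27 for the 9 HOXA genes, -0.44 for the 6 HOXB genes, -1.05 for the 6 HOXC genes and 0.23 for the 3 HOXD genes. Leaving out library IR 1 gave 5 HOX genes past the threshold beside 19.7% of all genes, and leaving out IR 2 gave 3 beside 12.4% (edgeR), so both counts were near the background. In these fits the lone IR library was assumed to vary like the other groups.

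**Figure D2:**
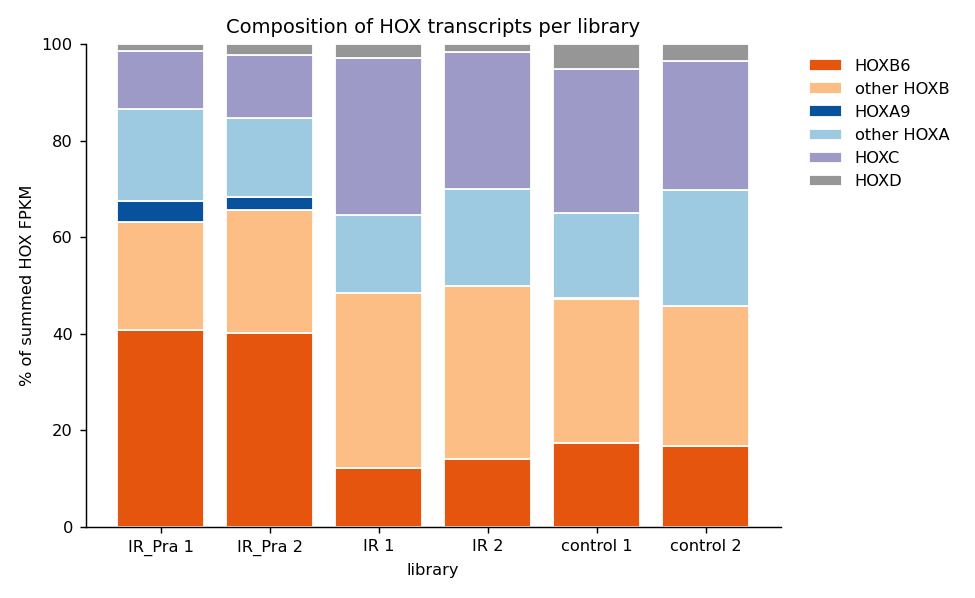
Share of each library's summed HOX FPKM taken by HOXB6, the other HOXB genes, HOXA9, the other HOXA genes, HOXC and HOXD. HOXB6 takes 40.8% and 40.2% in IR_Pra and no more than 17.3% in the IR and control libraries, while HOXC takes 12.04% and 13.05% in IR_Pra and at least 26.8% in the others.

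The share of the HOXB cluster in HOX transcripts lay above the other groups in IR_Pra, through HOXB6, and that of the HOXC cluster below. HOXB genes made up 63.0% and 65.5% of summed HOX FPKM in IR_Pra, 48.4% and 49.8% in IR, and 47.2% and 45.7% in control. HOXC genes made up 12.04% and 13.05% in IR_Pra, 32.4% and 28.4% in IR, and 29.8% and 26.8% in control. The joint share of the HOXB genes other than HOXB6 was below the other groups in IR_Pra. It was 22.2% and 25.4% in IR_Pra, 36.2% and 35.7% in IR, and 29.9% and 29.0% in control. Shares are parts of the same sum, so a lower share need not be a lower level. Summed HOXC FPKM was 18.6 and 11.8 in IR_Pra, 20.5 and 37.5 in IR, and 8.94 and 11.9 in control. IR_Pra thus overlapped control on the HOXC level and lay below IR. By CPM, HOXB5, HOXB7 and HOXB8 lay above both controls in both IR_Pra libraries, and HOXB2 and HOXB3 overlapped control. On the HOXB and HOXC shares the IR_Pra libraries lay outside the range of the 4 others, whereas IR and control lay close together. For 2 animals against 2, an exact permutation test cannot give a two-sided p below 0.333, and no other test of these shares was run.

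Along the paralog axis the result depended on the weights. Paralogs 1 to 3 made up 6.57% and 6.15% in IR_Pra, 13.7% and 22.9% in IR, and 14.9% and 15.7% in control. Paralogs 9 to 13 made up 7.95% and 5.92% in IR_Pra, 8.76% and 2.48% in IR, and 5.40% and 3.80% in control. On this scale the low paralogs separated IR_Pra from the rest and the high paralogs did not. With read counts as weights the high paralogs did: paralogs 9 to 13 made up 11.5% and 8.09% of HOX counts in IR_Pra, 6.49% and 1.90% in IR, and 3.71% and 2.70% in control. The FPKM-weighted mean paralog number was 6.13 and 6.14 in IR_Pra, 5.99 and 5.38 in IR, and 5.89 and 5.72 in control. Within HOXA alone it was 5.94 and 5.71 in IR_Pra, 4.84 and 4.95 in IR, and 4.67 and 4.73 in control, which was the widest gap of the 4 clusters.

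The comparison of IR with control set irradiated intestine without pravastatin beside unirradiated intestine at day 14. HOXB5, which in mice acts in the neural crest cells that form the enteric nervous system, was higher in IR than in control and was the only HOX gene past the threshold. Most other HOX genes of the HOXB and HOXC clusters had both IR libraries above both control libraries without passing. Summed markers of smooth muscle, of fibroblasts and of enteric neurons and glia also lay above control in both IR libraries.

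HOXB5 (Entrez 100522700, chromosome 12, 24845224 to 24849639) had 14.75 and 19.7 CPM in IR, against 3.46 and 5.21 in control. The IR_Pra libraries, at 13.25 and 8.68 CPM, lay between. HOXB5 averaged 17.2 ± 3.5 CPM in IR and 4.33 ± 1.23 in control (SD, n = 2 each). Its log2 fold change was 1.99 ± 0.38 (edgeR adjusted p = 0.0454). That p lies close to the threshold, and leaving out either control or either IR_Pra library ended the call. The calls of all other genes ended as well in these fits, so the loss was not particular to HOXB5. Its log2 fold change stayed between 1.75 and 2.38. The call also ended with library size alone as scaling, with limma on FPKM, with the 4 libraries alone and with the replicate number as a block, at adjusted p between 0.0654 and 0.1003 (edgeR and limma). Of all genes, 2.61% passed with library size alone and 2.21% or 2.98% with limma on FPKM. With the 4 libraries alone or the replicate block, 0% of all genes passed.

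The single HOX call among 24 stands beside 3.39% of all genes called higher and 2.68% called lower, so it was near the background. At an unadjusted p of 0.05, 14 of the 24 HOX genes and 5496 of all 18197 genes passed. By placement, 17 of the 24 had both IR libraries above both control libraries, against 29.8% of all genes, and 1 had both below, against 30.0% of all genes. The median log2 fold change was 1.25 over the 23 genes other than HOXA10, against 0.03 over all genes. Without library IR 1 edgeR called 11 HOX genes beside 28.3% of all genes, and without IR 2 it called 4 beside 17.5%, with the lone IR library again assumed to vary like the other groups.

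HOXB2 had the largest estimate, 2.42 ± 0.54, and just missed the threshold (edgeR adjusted p = 0.0555), as did HOXB8 at 1.44 ± 0.33 (edgeR adjusted p = 0.0571). All 6 HOXC genes had both IR libraries above both control libraries, with log2 fold changes between 1.14 and 2.04 (edgeR adjusted p between 0.0615 and 0.423). HOXC6, the most abundant of them by counts, had 25.95 and 48.3 CPM in IR, against 13.85 and 19.9 in control. In the HOXD cluster the values hardly differed for HOXD8, at 3.36 and 3.58 CPM in IR, against 3.34 and 3.14 in control, and for HOXD3, at 1.69 and 1.94 in IR, against 1.70 and 1.36 in control. HOXD9 averaged 2.39 ± 0.41 CPM in IR, against 1.01 ± 0.16 CPM in control (SD, n = 2 each), without overlap (log2 fold change 1.23 ± 0.43, edgeR adjusted p = 0.126).

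HOXA genes were the most uneven of the clusters. HOXA5, needed in mice for maturation of gut and lung, had 9.14 and 20.5 CPM in IR, against 4.40 and 8.05 in control (1.25 ± 0.53, edgeR adjusted p = 0.180). HOXA6 had 2.17 and 14.4 CPM in IR, against 3.06 and 7.48 in control, and its estimate of 0.66 ± 0.97 became -1.28 without library IR 2. HOXA3, needed in mice for thymus and parathyroid, had 2.84 and 10.52 CPM in IR, against 2.32 and 5.03 in control, and its paralog HOXB3 had 8.25 and 23.7 CPM in IR, against 7.41 and 10.2 in control. Their estimates of 0.86 ± 0.79 and 0.86 ± 0.59 also turned negative without IR 2, at -0.38 and -0.10. In the annotation HOXA3 overlaps HOXA4, HOXA5 and HOXA6, and HOXA5 overlaps HOXA6, so reads may have been split between these pairs.

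HOXA2, a gene of the hindbrain and the branchial arches in mice, had 0.464 and 1.24 CPM in IR, against 0.312 and 0.587 in control, and the groups overlapped. HOXA7 had 2.06 and 4.46 CPM in IR, against 0.623 and 1.33 in control, and they did not.

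**Figure D3:**
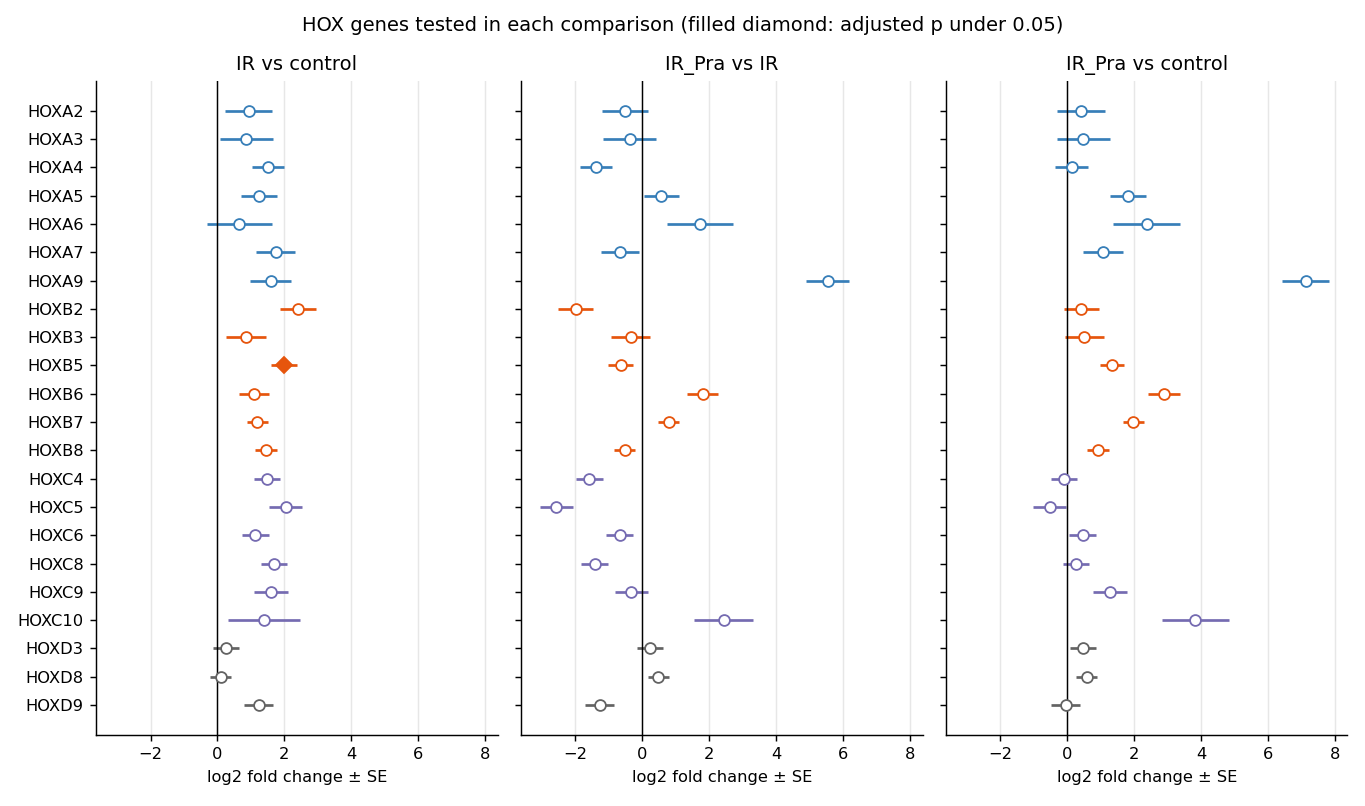
Log2 fold change with standard error (edgeR) of tested HOX genes in the 3 comparisons, without HOXA10, coloured by cluster and on a common axis. HOXB5 in IR against control is the only filled diamond, HOXA9 lies at 5.54 and 7.12 in the IR_Pra comparisons, and most genes lie right of 0 in IR against control.

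In IR_Pra against control HOXA9, HOXB6 and HOXB7 had the smallest p of the HOX genes, and HOXA5, HOXA6 and HOXC9 also lay above control. The comparison shares its libraries with the other 2 and is not independent of them. No gene of the 24 and 0% of all genes passed the adjusted threshold with edgeR. At an unadjusted p of 0.05, 9 HOX genes and 623 of all genes passed, and DESeq2 called 3 HOX genes, namely HOXA9, HOXB6 and HOXB7, among 72 genes in all. By placement, 13 of 24 HOX genes had both IR_Pra libraries above both controls, against 20.8% of all genes, and 2 had both below, against 20.0%. HOXA10, which passed the filter on low counts only through IR_Pra, is among these 13 and among the 9 named before. HOXC10, which passed that filter only with the IR_Pra libraries counted, is among both as well.

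HOXC5 was among the genes below control. HOXA5 had 28.0 and 16.02 CPM in IR_Pra, against 4.40 and 8.05 in control (1.82 ± 0.54), and HOXA6 had 41.1 and 13.4 CPM in IR_Pra, against 3.06 and 7.48 in control (2.37 ± 1.01; edgeR adjusted p = 0.9998 for both). HOXC9, which shapes thoracic motor columns in mice, had 6.41 and 3.73 CPM in IR_Pra, against 2.15 and 2.06 in control (1.27 ± 0.51). HOXC6 and HOXC8 overlapped control, at 28.0 and 18.3 CPM in IR_Pra, against 13.85 and 19.9 in control, for HOXC6. The median over the 23 genes other than HOXA10 was 0.51, against 0.00 for all genes.

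**Figure D4:**
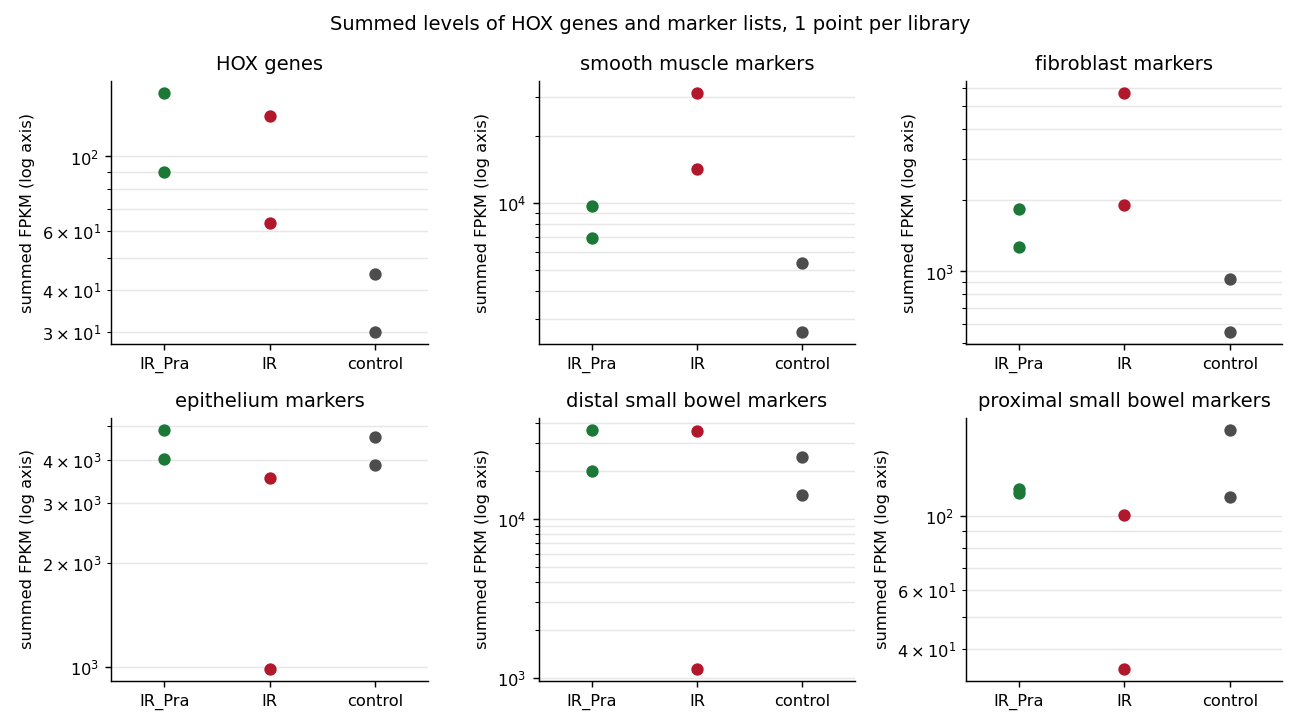
Summed FPKM of the 36 HOX genes and of 5 marker lists, on log axes, with 1 point for each library in the order IR_Pra, IR and control. Smooth muscle and fibroblast markers are highest in IR, and library IR 2 is the lowest point for epithelial, distal and proximal small bowel markers.

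Markers of stromal cells differed between the groups as well. The summed FPKM of 12 smooth muscle markers was 9700 and 6906 in IR_Pra, 14235 and 31135 in IR, and 2610 and 5360 in control. The 12 fibroblast markers gave 1845 and 1272 in IR_Pra, 1907 and 5696 in IR, and 553 and 925 in control. All 12 smooth muscle markers had a positive estimate in IR against control, with a median of 1.97 (log2), and 1 of them, ACTA2, passed the threshold. Of the fibroblast list 11 of 12 were positive, with FBLN1 passing, and of the enteric neuron and glia list 12 of 12, with GFAP, PRPH and UCHL1 passing. No marker of these 3 lists was at 0. In IR_Pra against IR all 12 smooth muscle estimates and 11 of the 12 fibroblast estimates were negative, with medians of -1.29 and -1.15, while the estimates of HOXA9, HOXB6, HOXB7 and HOXC10 were positive. The part of these markers in the HOX results was not tested.

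Set against the muscle markers, the summed HOX level was lowest in IR. The summed HOX level per 1000 FPKM of smooth muscle markers was 15.9 and 13.04 in IR_Pra, 4.45 and 4.23 in IR, and 11.5 and 8.32 in control. Per 1000 FPKM of fibroblast markers it was 83.7 and 70.8 in IR_Pra, 33.2 and 23.1 in IR, and 54.2 and 48.2 in control. On both ratios of sums IR_Pra was the highest and IR the lowest, without overlap. The place of IR_Pra above control depended on the summary: its log2 difference per smooth muscle marker was 0.56 from sums and -0.009 from means of log2 values. Per 1000 FPKM of endothelial markers it was 1655 and 1042 in IR_Pra, 559 and 797 in IR, and 331 and 680 in control, so IR was not the lowest there.

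Lymphoid and macrophage markers also differed between the groups. The 7 B cell markers summed to 81.2 and 213 FPKM in IR_Pra, 17.3 and 19.6 in IR, and 264 and 143 in control. The 8 macrophage markers summed to 1043 and 1562 FPKM in IR_Pra, 2586 and 2950 in IR, and 572 and 623 in control. IR_Pra overlapped control on the first list and lay between the other groups on the second, whereas on HOXA9 it lay far above both. The part of these cells in the HOX results was not tested.

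Among HOX cofactors, MEIS3 passed the threshold in IR against control. MEIS3, a partner of HOX proteins, had 30.4 and 41.0 CPM in IR, against 8.54 and 9.65 in control (1.97 ± 0.27, edgeR adjusted p = 0.0370). The other 8 of the 9 PBX, MEIS and PKNOX genes did not pass, and the list's median was 0.60. MEIS1 had 20.8 and 48.0 CPM in IR, against 12.9 and 24.3 in control, and MEIS2 had 21.3 and 36.5, against 11.2 and 20.3. None of the list passed in the IR_Pra comparisons.

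Of 27 Polycomb and Trithorax regulators, 3 passed the threshold as lower in IR than in control, beside 2.68% of all genes. None passed as higher, and 8 of the 27 estimates were positive. KMT2A, the histone methyltransferase that keeps HOX genes active, had 18.5 and 23.0 CPM in IR, against 93.0 and 77.8 in control (-2.04 ± 0.26, edgeR adjusted p = 0.0370). KDM6B, which removes the Polycomb mark, had 63.1 and 57.0 CPM in IR, against 220.2 and 211 in control (-1.84 ± 0.23, edgeR adjusted p = 0.0361). KDM6A, its relative, gave -1.46 ± 0.25 (edgeR adjusted p = 0.0413). These transcripts lay lower while most HOX estimates in the same comparison were positive. The transcripts of these genes are long, at 17422, 7887 and 6037 nt, and the part of the length trend of library IR 1 in their values was not tested. The list's median was -0.42 in IR against control, and none of its members passed in the IR_Pra comparisons.

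The 16 tested retinoic acid pathway genes had a median log2 fold change of 0.09 in IR against control, with 8 of 16 estimates positive. The 17 genes that flank the clusters had a median of -0.09, and TTLL6, a flanking gene, was lower in IR, at 1.25 and 1.66 CPM, against 8.03 and 6.22 in control (-2.29 ± 0.39, edgeR adjusted p = 0.0410). CDX1, a relative of the HOX genes outside the clusters, had 29.8 and 31.5 CPM in IR_Pra, 69.5 and 20.7 in IR, and 48.9 and 39.6 in control.

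Non-HOX rows inside the clusters, mostly long non-coding RNAs, were placed above control in IR in most cases. In IR against control 8 of the 11 tested rows had both IR libraries above both controls, against 29.8% of all genes, and none had both below, against 30.0%. Among these 8, LOC110257591, LOC110257526, LOC106505099, LOC102166259, LOC106510294 and LOC110260669 overlap HOX genes. Without strand information their reads cannot be told apart from those of the HOX rows, so they are not separate evidence. LOC110260669, a long non-coding RNA overlapping HOXC6, passed, with 146 and 251 counts in IR, against 22 and 33 in control (2.73 ± 0.46, edgeR adjusted p = 0.0403). In IR_Pra it had 31 and 26 counts, near control. LOC106510294, which overlaps HOXC8 and HOXC9, had 245 and 184 counts in IR_Pra, 500 and 923 in IR, and 161 and 249 in control, the order also seen for HOXC8. In IR_Pra against IR, 6 of the 11 rows had both libraries below, against 26.6% of all genes, and 2 had both above, against 27.3%, namely LOC102159438 in HOXA and LOC100523635 in HOXB. LOC102159438 had counts only in IR_Pra and passed the filter on low counts through them alone, so its placement was fixed in advance.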

How the data were processed

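The deposited table gives, per the file headers, a read count and an FPKM value for each gene and library. The count columns hold whole numbers, and the FPKM columns were made by the authors from the reads and transcript length. Per the submitters' processing notes, bcl2fastq 2.20.0, Trimmomatic, HISAT2 2.1.0 and StringTie 2.1.3b were used, with builds Sscrofa11.1 and GRCh38. The role of GRCh38 and the strand setting of counting are not given in the sources used here. Rows without a gene name, 24 of 30376, held at most 0.0385% of a library's counts and were left out.

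Counts were fitted in R 4.3.3 with edgeR 4.0.16 (newer quasi-likelihood form, TMM scaling, filterByExpr, all 6 libraries, 3 residual degrees of freedom), tested two-sided and adjusted by Benjamini-Hochberg over 18197 genes. Standard errors came from the F statistic. Common biological variation was 0.431. Limma 3.58.1 and DESeq2 1.42.0 were alternatives, and the fit was tested on simulated data. Totals, shares and mean paralog numbers came from deposited FPKM. Coordinates are RefSeq Sscrofa11.1, matched by Entrez ID.

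Animals are separate, and the main fit did not pair them by replicate number. The 2 animals per group limit precision, and the floor of 3 counts covers counting error only. Named genes were, per cluster, the 3 HOX genes with highest mean FPKM, the most 5' gene with 10 counts, the extremes of each comparison and any call, plus up to 4 called genes per list. Members and lists were chosen with earlier results of these data known. HOXA9, HOXC4 and other HOX genes outside the rule, and the non-HOX cluster rows, were named after their values were seen. Results for some genes are not reported here.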

Additional observations from a re-analysis of the deposited data

How the results depend on the processing

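Of 1166 log2 fold changes of HOX genes recomputed under other settings, 1117 stayed on their side of the threshold, 40 gained a call and 9 lost one, all of them HOXB5 in IR against control. The sign differed in 21, none of them called. With DESeq2, calls were 2872, 4131 and 72 genes and 7, 10 and 3 HOX genes in IR_Pra against IR, IR against control and IR_Pra against control. In IR against control, library size alone gave 475 genes and 0 HOX genes, FPKM with pseudocount 1 gave 403 and 0, and pseudocount 0.1 gave 543 and 0. A filter of 5 CPM gave 1249 of 12694 genes (9.84%) and 2 of the 15 HOX genes tested there. The 4 libraries alone gave 0 and 0, and the replicate block gave 0 and 0. In IR_Pra against IR, 0 genes were called with voom, the 4 libraries alone or the replicate block, 2 with library size alone or no filter, and 10 with FPKM and pseudocount 0.1. Same-numbered animals correlated at 0.08, -0.09 and -0.11 in deviations from group means. Each group gives only 1 difference between its 2 animals, so these values cannot exclude a pairing. Leaving out 1 library gave 0 to 5342 genes and 0 to 11 HOX genes in IR against control, and 0 to 3728 and 0 to 5 in IR_Pra against IR. The earlier form of the edgeR fit, added after seeing the data, called 790 genes and HOXB5 in IR against control. Placement without each library, also added later, gave 17 to 22 HOX genes above in IR against control, beside 35.6% to 44.7% of all genes. It gave 8 to 12 in IR_Pra against IR, beside 35% to 43.8%, and 13 to 20 in IR_Pra against control, beside 33.7% to 38.5%. With all libraries these shares of all genes were lower, at 29.8%, 27.3% and 20.8%.

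The difference in share of paralogs 9 to 13 was 1.31 points for IR_Pra minus IR and 2.34 for IR_Pra minus control. It became 5.59 and 6.58 with count weights, 5.0035 and 6.52 with log2(FPKM + 1) weights, and 5.23 and 6.12 without HOXB6. The difference in mean paralog number, 0.45, 0.33 and -0.12 for IR_Pra minus IR, IR_Pra minus control and IR minus control, was 1.44, 0.87 and -0.57 without overlapping genes. For IR_Pra minus control it was 0.53 with count weights and 0.47 without HOXB6. The log2 summed HOX difference for IR_Pra minus control, 1.69, was 0.84 as a median over genes. The log2 HOX level per smooth muscle marker, 1.73, 0.56 and -1.17 in the same order, was 1.47 and -0.88 per fibroblast marker in IR_Pra minus IR and IR minus control, and 0.98, 1.47 and 0.49 per endothelial marker. As a mean of log2 values it was 1.05 for IR_Pra minus IR and -0.009 for IR_Pra minus control. The cause of these changes was not tested. With 2 animals a group and counts under 100 for HOXA10 and HOXC10, small differences were not detectable at this depth.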
